A study of Mus musculus with 9 samples.

Results

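The core cardiac transcription factors are the DNA-binding proteins that switch on and maintain the contractile gene programme of the heart. They were taken here as 10 genes chosen by name from a table of 54532 genes: the zinc finger genes Gata4 and Gata6, the homeobox gene Nkx2-5, the MADS box genes Mef2a, Mef2c and Mef2d, the T-box genes Tbx5 and Tbx20 and the basic helix-loop-helix genes Hand1 and Hand2. RNA was sequenced from right ventricular myocardium of wild-type C57BL/6 mice, labelled postnatal day 7, in 9 libraries. The 3 Sham libraries came from sham-operated pups, the 3 VO libraries from pups given fistula surgery, a volume overload model, and the 3 CsA libraries from pups that had this surgery and an injection of the calcineurin inhibitor cyclosporin A. The labels give neither the dose, the age at harvest nor whether each library is 1 pup. The spread that the p-values rest on is that among these libraries, and how much of it is technical is not known.

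These factors act together at shared enhancers. GATA factors and Nkx2-5 bind side by side at genes of the sarcomere and of atrial natriuretic peptide, MEF2 factors are held back by class II histone deacetylases until calcium signals release them, and Hand factors pair with ubiquitous helix-loop-helix partners at E-boxes. Tbx5 is known from the atria and the left ventricle, Hand1 from the embryonic left ventricle and Hand2 from the embryonic right ventricle. Gata4, Gata6, Tbx20, Hand2 and the MEF2 genes are also expressed in other cells of the heart, such as fibroblasts, endocardium or endothelium. In bulk tissue, fewer cells of a type and less RNA per cell cannot be told apart.

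Libraries held 12046288 to 15986747 fragments assigned to genes. Some stood apart from their group. Myl7, the atrial myosin light chain, was at 235 FPKM (fragments scaled to gene length and library size) in Sham 1, 269.7 in Sham 3 and 68.3 in CsA 3, and at 0.959 to 13.2 FPKM in the other 6 libraries. VO 3 had 11.0% of its fragments on mitochondrially encoded genes, against 22.2% to 26.3% elsewhere. Sham 2 was the 1 library with Y-linked Ddx3y, at 18.6 FPKM. Ventricular markers were present in every library, though they do not separate the right ventricle from the left. The ventricular light chain Myl2 lay between 510.7 and 1506 FPKM. The summed level of 12 cardiomyocyte markers, Myl2 among them, was 15195 to 19328 FPKM in Sham, 11297 to 19688 in VO and 15855 to 16913 in CsA. None was at 0 in any library. The highest of them was Actc1, with a mean of 8048 FPKM in Sham. This sum does not measure ventricular against atrial content.

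Of the 10 genes, 9 were above 0 in every library and were tested, and Hand1 was not detected. The deposited FPKM divides by the summed length of all exons of a gene, which for Mef2a and Mef2c is 2.65 and 2.50 times the longest transcript, against 1.00 to 1.48 times for the other members, so the order of levels depends on this length. On the deposited scale Nkx2-5, the homeobox factor of the early heart field and the working myocardium, had the highest level, with a mean of 49.8 FPKM over the 9 libraries (SD 18.4), which ranked 5 by level among the 1469 genes with a transcription factor family in the deposited table. It was above the next gene in 8 of 9 libraries. Tbx20, a T-box factor that represses non-chamber genes, followed at 27.0 FPKM, then Mef2d at 26.1, Gata4 at 22.5, Gata6 at 21.7 and Mef2a at 21.1 FPKM. The ranges of these 5 overlapped, and neighbours in this order changed places between libraries: Tbx20 was above Mef2d in 5 of 9 and Gata6 above Mef2a in 5 of 9. Hand2 at 8.96, Mef2c at 8.42 and Tbx5 at 5.59 FPKM formed a lower tier with overlapping ranges, and Mef2a was above Hand2 in 9 of 9 libraries. Per base of the longest transcript the order was another: Mef2a came first with a mean of 55.8, then Nkx2-5 at 49.8, Tbx20 at 35.7, Gata6 at 32.01, Mef2d at 28.9, Gata4 at 25.8 and Mef2c at 21.1, and Mef2c no longer overlapped Hand2 (8.96) or Tbx5 (6.63).

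Hand1 was listed at 0 in all 9 libraries. A count of 0 allows up to 3 fragments, which is 0.0871 to 0.126 FPKM for this gene depending on the library, counting error only. Among relatives outside the set, Mef2b had a mean of 0.0965 FPKM, Gata5 0.189 FPKM and Gata2 3.06 FPKM, while Srf, the serum response factor whose MADS box resembles that of MEF2, stood at 27.1 FPKM.

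The members differed in how much they moved over the 9 libraries. Gata6 was the steadiest, with a highest level 1.44 times its lowest, against 6.57 times for Tbx5, 4.07 for Mef2d, 3.68 for Hand2 and 3.66 for Nkx2-5.

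**Figure D1:**
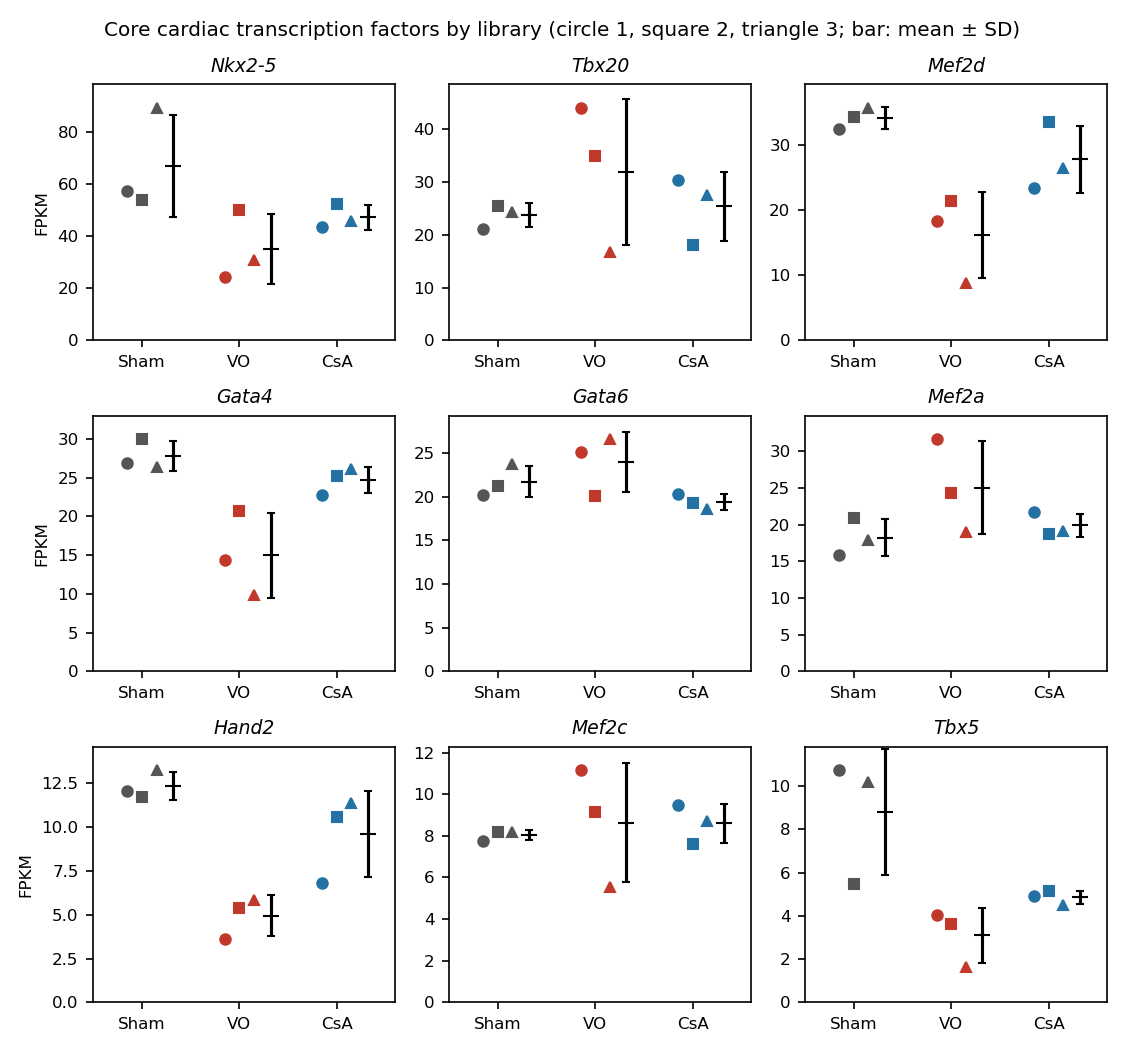
FPKM of the 9 detected genes in each library (vertical axis from 0), with circles, squares and triangles for replicates 1, 2 and 3 and black bars for the mean ± SD of each group of 3. The Hand2, Tbx5, Gata4, Mef2d and Nkx2-5 points of VO all lie below those of Sham, whereas Gata6, Mef2a, Mef2c and Tbx20 overlap.

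Promoter sequence was at hand in a RefSeq table (build GRCm38.p6) for 6 of the 10 genes, in 8 windows. The 250 bases before the start are shown for Hand2, one of the 2 genes that passed the test in VO against Sham, and for Nkx2-5, the member with the highest deposited FPKM. Capitals mark matches to the letters AGATAA for GATA factors, TNNAGTG for Nkx2-5 and CANNTG for helix-loop-helix factors, searched on both strands, and both windows hold a match to a motif of a family in the set.
Hand2 (chr8:57320733-57320982, plus strand): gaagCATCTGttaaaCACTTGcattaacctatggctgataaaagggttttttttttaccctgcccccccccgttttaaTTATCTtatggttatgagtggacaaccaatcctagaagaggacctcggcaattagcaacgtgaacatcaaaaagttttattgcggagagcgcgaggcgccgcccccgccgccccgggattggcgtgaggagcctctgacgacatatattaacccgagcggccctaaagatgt
Nkx2-5 (chr17:26841566-26841815, minus strand): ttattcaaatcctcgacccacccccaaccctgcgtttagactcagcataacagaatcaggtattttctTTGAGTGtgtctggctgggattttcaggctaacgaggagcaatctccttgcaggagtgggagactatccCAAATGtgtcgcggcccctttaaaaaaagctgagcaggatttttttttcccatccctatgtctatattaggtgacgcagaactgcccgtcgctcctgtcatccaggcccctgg
The Hand2 window holds the GATA letters on its minus strand, 172 to 167 bases before the start, and a pair of E-boxes. The Nkx2-5 window holds the Nkx2-5 letters 182 to 176 bases before the start and 1 E-box. Over all 32851 windows of this length, 9.99% hold the GATA letters, 34.1% the Nkx2-5 letters, 66.2% an E-box, 11.8% the T-box letters AGGTGT and 1.69% the MEF2 motif. The T-box letters were found in 1 of 3 Mef2c windows and in no window of another member, and the MEF2 motif in none of the 8.

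VO was set against Sham to read the effect of the surgery. Hand2 and Tbx5 fell, to a fitted 0.440 and 0.416 of Sham on the FPKM + 1 scale. Gata4, Mef2d and Nkx2-5 stood at a fitted 0.535, 0.462 and 0.523 of Sham without passing the test. Gata6, Mef2a, Mef2c and Tbx20 had fitted values above 0 and libraries that overlapped Sham, though the value of Mef2c was below 0 (-0.023) when FPKM was rescaled without mitochondrial genes. Of the 9 genes tested, 2 were called lower and 0 higher by limma at an adjusted p of 0.05, against a background of 4.76% of 13477 tested genes called, 2.72% lower and 2.04% higher. In 5 of the 9 every VO library was below every Sham library and in 0 of 9 above, which held for 17% and 16.2% of all tested genes (33.1% in either direction). The split of calls over all genes, 275 higher and 367 lower, was 606 and 405 with voom on recovered fragments and 212 and 541 when FPKM was rescaled without mitochondrial genes. The same 5 had an unadjusted p under 0.05 (15.3% of all genes, lower). The median log2 difference was -0.90 over the 9 genes and 0.0028 over all tested genes.

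**Figure D2:**
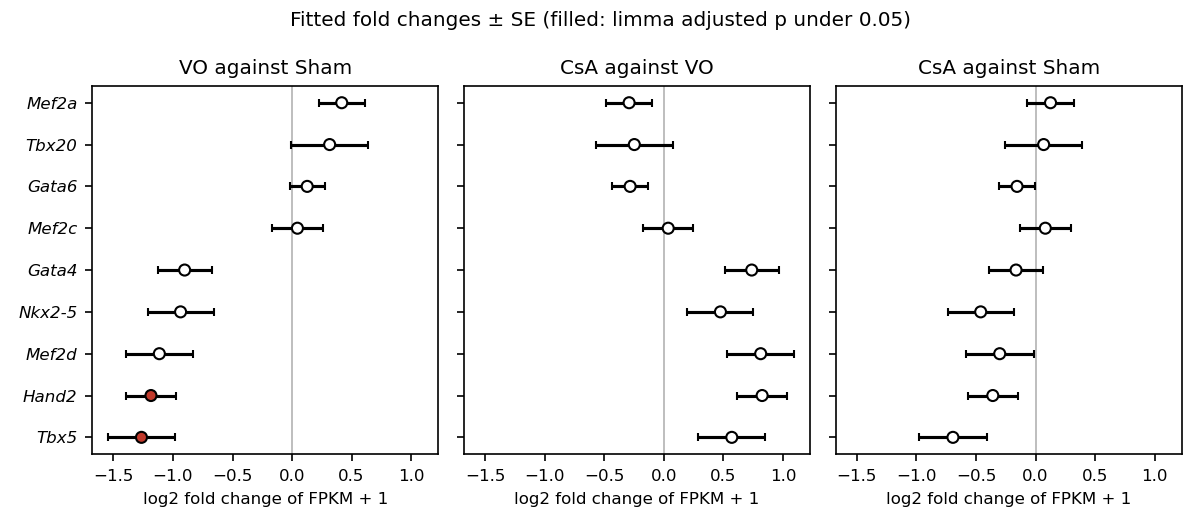
Fitted log2 fold change of FPKM + 1 (horizontal axis) with its SE for the 9 tested genes in the 3 comparisons, filled where the limma adjusted p was under 0.05. Only Hand2 and Tbx5 in VO against Sham are filled, at -1.18 and -1.26.

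Hand2, the helix-loop-helix factor of right ventricular growth (ENSMUSG00000038193, chromosome 8, 57320983 to 57324633, plus strand, GRCm38), stood at 12.0, 11.7 and 13.3 FPKM in Sham 1 to 3, 3.60, 5.41 and 5.82 in VO and 6.81, 10.6 and 11.4 in CsA. All VO libraries were below all CsA libraries, and these below all Sham libraries. Its log2 change in VO against Sham was -1.18 ± 0.21 (SE, n = 3 per group; limma adjusted p = 0.0382), on 135 to 236 fragments per VO library and 383 to 413 per Sham library. A long noncoding gene on the opposite strand, AV026068, also called Hand2os1, spans 57281117 to 57324233 and so covers most of Hand2. It stood at 3.28 ± 0.248 FPKM in Sham, 5.07 ± 0.892 in VO and 3.14 ± 0.205 in CsA (SD, n = 3), a log2 value of 0.50 ± 0.14 in VO against Sham (limma adjusted p = 0.066). No source used here states the strand setting of the counting, so reads of the overlap cannot be told apart. The strand limit also holds for Lysmd4, which overlaps Mef2a, at -0.40 (limma adjusted p = 0.167). At Gata6 it touches only the first bases, since 1010001N08Rik ends at 11052567 and Gata6 begins at 11052508. 1010001N08Rik fell by 0.73 on the log2 scale (adjusted p = 0.0451).

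Tbx5, the T-box factor of the atria and left ventricle (ENSMUSG00000018263, chromosome 5, 119832668 to 119885219), stood at 10.8, 5.48 and 10.2 FPKM in Sham 1 to 3, 4.03, 3.63 and 1.64 in VO and 4.93, 5.14 and 4.53 in CsA. Every VO library was below every CsA library and every CsA library below every Sham library, with Sham 2 at 5.48 FPKM close to CsA 2 at 5.14. The log2 change in VO against Sham was -1.26 ± 0.28 (limma adjusted p = 0.0408). Both high Sham values came from the libraries high in Myl7. The summed level of 11 atrial cardiomyocyte markers, Tbx5 among them, was 682 and 713 FPKM at the median and highest of Sham against 58.2 FPKM at its lowest, 44.7 to 66.1 in VO and 73.5 to 209 in CsA. The atrial markers Sln and Bmp10 were at 0 in Sham 2 and CsA 2. With the Myl7-rich libraries (CsA 3, Sham 1 and Sham 3) left out, the log2 difference of Tbx5 was -0.71 and that of Hand2 was -1.12. Sham 2 was then the only Sham library, assumed to vary like the other groups. It had Ddx3y at 18.6 FPKM against 0 in every VO library, so sex and group cannot be told apart in this setting. With the Myl7 level as a covariate the log2 differences of Tbx5 and Hand2 were -1.02 (limma adjusted p = 0.194) and -1.15 (0.184).

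**Figure D3:**
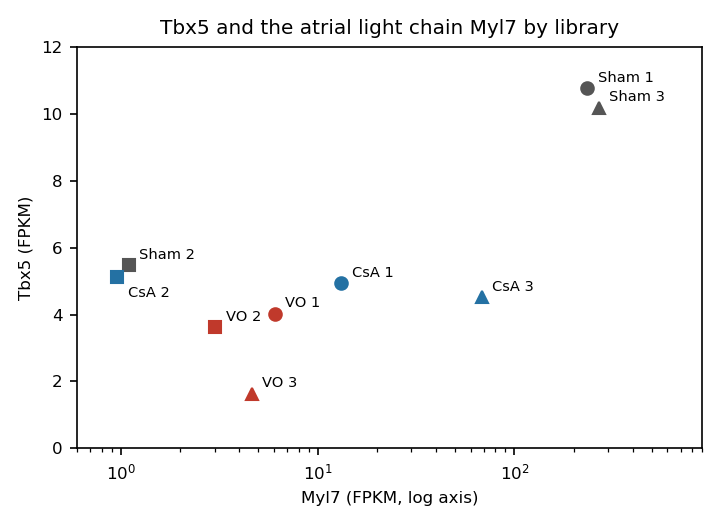
Tbx5 FPKM (vertical axis from 0) against Myl7 FPKM (log axis) in each library, coloured by group and labelled. Sham 1 and Sham 3 lie at the upper right above 10 FPKM of Tbx5, and the VO libraries are lowest in Tbx5 with Myl7 at 3.02 to 6.06 FPKM.

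Gata4, the zinc finger factor of myocyte growth and survival (ENSMUSG00000021944, chromosome 14, 63198922 to 63271692), stood at 26.9, 30.0 and 26.4 FPKM in Sham, 14.4, 20.8 and 9.88 in VO and 22.8, 25.2 and 26.1 in CsA. The VO libraries lay below all 6 others, but the log2 difference from Sham of -0.90 ± 0.23 did not pass (limma adjusted p = 0.0511). Gata6, which overlaps Gata4 in function in the embryonic heart (ENSMUSG00000005836, chromosome 18, 11052508 to 11085635), stood at 20.2, 21.3 and 23.7 FPKM in Sham, 25.1, 20.1 and 26.6 in VO and 20.3, 19.2 and 18.5 in CsA. The groups overlapped, and the log2 difference of 0.13 (95% interval -0.21 to 0.46) did not pass (adjusted p = 0.603).

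Nkx2-5 (ENSMUSG00000015579, chromosome 17, 26838664 to 26841565) stood at 57.6, 53.9 and 89.5 FPKM in Sham, 24.4, 50.2 and 30.9 in VO and 43.5, 52.6 and 45.8 in CsA. Sham lay above both other groups, with CsA 2 and VO 2 close to Sham 2, and VO 2 lay inside the CsA range. Sham 3 was far above the other Sham libraries. The log2 difference of -0.94 ± 0.28 did not pass in limma (adjusted p = 0.0697).

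Of the MEF2 genes, Mef2d alone had VO libraries that did not overlap Sham. Mef2d (ENSMUSG00000001419, chromosome 3, 88142372 to 88172086), whose product takes part in the response of the adult heart to load, stood at 32.4, 34.3 and 35.7 FPKM in Sham, 18.4, 21.5 and 8.79 in VO and 23.4, 33.5 and 26.4 in CsA, a log2 difference of -1.11 ± 0.28 in VO against Sham (limma adjusted p = 0.052). Mef2a, a MEF2 gene expressed in postnatal heart muscle (ENSMUSG00000030557, chromosome 7, 67231163 to 67372858), stood at 15.9, 20.9 and 17.9 FPKM in Sham, 31.7, 24.4 and 19.0 in VO and 21.7, 18.8 and 19.2 in CsA (log2 0.42 ± 0.19, adjusted p = 0.186). Mef2c, needed for right ventricle formation in the embryo (ENSMUSG00000005583, chromosome 13, 83504034 to 83667080), stood at 7.75, 8.20 and 8.18 FPKM in Sham, 11.2, 9.17 and 5.56 in VO and 9.48, 7.60 and 8.72 in CsA. Its VO libraries lay on both sides of Sham, with a log2 difference of 0.045 (95% interval -0.43 to 0.52).

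Tbx20 (ENSMUSG00000031965, chromosome 9, 24718138 to 24774303) stood at 21.2, 25.6 and 24.4 FPKM in Sham, 44.1, 35.0 and 16.8 in VO and 30.5, 18.1 and 27.7 in CsA. VO 1 was the highest and VO 3 the lowest library of all 9, and the log2 difference of 0.32 ± 0.33 did not pass (adjusted p = 0.552). VO 3 also held the lowest level of Gata4, Mef2c, Mef2d and Tbx5 and the highest of Gata6.

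Leaving out libraries changed which of the 9 genes were called in VO against Sham. Without VO 3, 5 passed in limma: Gata4, Mef2d, Tbx5 and Hand2 as lower and Mef2a as higher, at a log2 of 0.59 (adjusted p = 0.0452), and 2032 of all genes passed. Without VO 2, Gata4, Nkx2-5, Mef2d, Tbx5 and Hand2 passed as lower, and 793 of all genes passed, 442 of them lower. Without Sham 1, Sham 2, Sham 3, VO 1, CsA 1 or CsA 3 none passed; the adjusted p then lay between 0.0526 and 0.183 for Hand2 and between 0.0502 and 0.188 for Tbx5. The signs for Hand2, Tbx5, Gata4, Mef2d and Nkx2-5 were below 0 in all 29 settings run, the fit as reported included.

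The composition of each family within a library does not depend on scaling between libraries. Mef2d made up 57.8%, 54.1% and 57.8% of the summed MEF2 FPKM in Sham 1 to 3, 30.0%, 39.0% and 26.3% in VO and 42.9%, 56.0% and 48.6% in CsA. Mef2a made up 28.4% to 33.0% in Sham, 44.3% to 57.0% in VO and 31.3% to 39.7% in CsA. On the deposited scale Mef2d was thus above Mef2a in every Sham and CsA library and below it in every VO library. Per base of the longest transcript Mef2a was above Mef2d in all 9 libraries. The ratio of Mef2a to Mef2d was then 1.18 to 1.46 in Sham, 2.72 to 5.18 in VO and 1.34 to 2.22 in CsA. Which gene leads thus depends on the length used. The VO libraries had the highest ratios. A change of length scales this ratio alike in every library, so it cannot alter their order. The share of Mef2c was 13.3% ± 0.450 in Sham, 17.2% ± 0.909 in VO and 15.4% ± 2.41 in CsA (SD, n = 3). Per base of the longest transcript the Mef2c shares of VO and Sham overlapped (18.8% to 21.1% and 18.0% to 19.9%), and the exact two-sided permutation p of their difference was 0.3.

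Gata6 made up 42.9%, 41.5% and 47.3% of the summed Gata4 and Gata6 FPKM in Sham, 63.6%, 49.2% and 72.9% in VO and 47.2%, 43.2% and 41.6% in CsA. All VO values lay above all others, with VO 2 closest. The log2 ratio of Tbx5 to Tbx20 was -0.98, -2.22 and -1.26 in Sham, -3.45, -3.27 and -3.36 in VO and -2.63, -1.82 and -2.61 in CsA. For VO against Sham, exact two-sided permutation tests gave p = 0.1 for the Mef2c share, the Gata6 share and the Tbx5 to Tbx20 ratio, the smallest p that 3 against 3 libraries allow (adjusted p = 0.18 over 9 such tests). For CsA against VO, the exact permutation p was 0.1 for the Gata6 share and the Tbx5 to Tbx20 ratio and 0.4 for the Mef2c share.

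**Figure D4:**
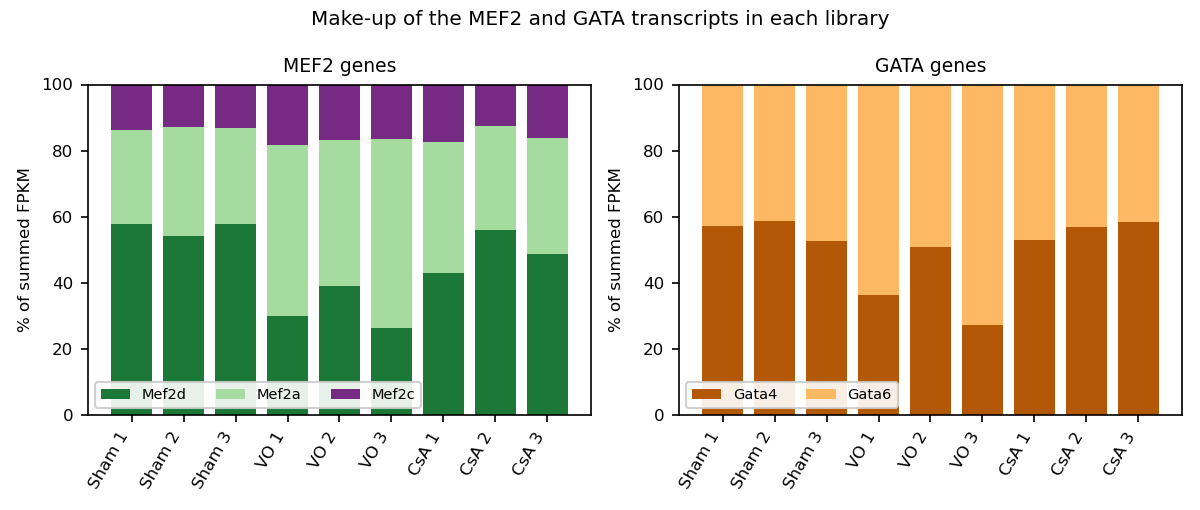
Stacked bars of the percentage of summed deposited FPKM taken by Mef2d, Mef2a and Mef2c (left) and by Gata4 and Gata6 (right) in each of the 9 libraries. The Mef2d share is 26.3% to 39.0% in VO and at least 42.9% elsewhere, and the Gata6 share is 49.2% to 72.9% in VO and at most 47.3% elsewhere.

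Base composition of the transcripts moved with these differences. The longest transcripts of Mef2a, Mef2c and Tbx20 had a GC content of 42.0%, 40.8% and 42.3%, and those of Tbx5, Mef2d, Gata4, Hand2 and Nkx2-5 51.3%, 55.0%, 57.4%, 59.3% and 67.1%, against a median of 49.4% over the tested genes. Gata6, at 55.3%, had a GC content like that of Mef2d and a log2 difference of the other sign. When the GC trend was removed library by library, limma called 0 of all genes. In that setting Tbx5 stood at a log2 of -1.19 (adjusted p = 0.101), Mef2d at -0.88 (0.161), Hand2 at -0.78 (0.0741), Gata4 at -0.58 (0.226) and Nkx2-5 at -0.20 (0.589). Mef2a went to 0.15, Tbx20 to 0.059, Mef2c to -0.25 and Gata6 to 0.37. Among the 5 lower genes, Nkx2-5, the richest in GC, moved most and Tbx5 least. The family shares and the Tbx5 to Tbx20 ratio set genes of unlike GC content side by side and were not corrected for it. The part of base composition in these differences was not tested further.

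**Figure D5:**
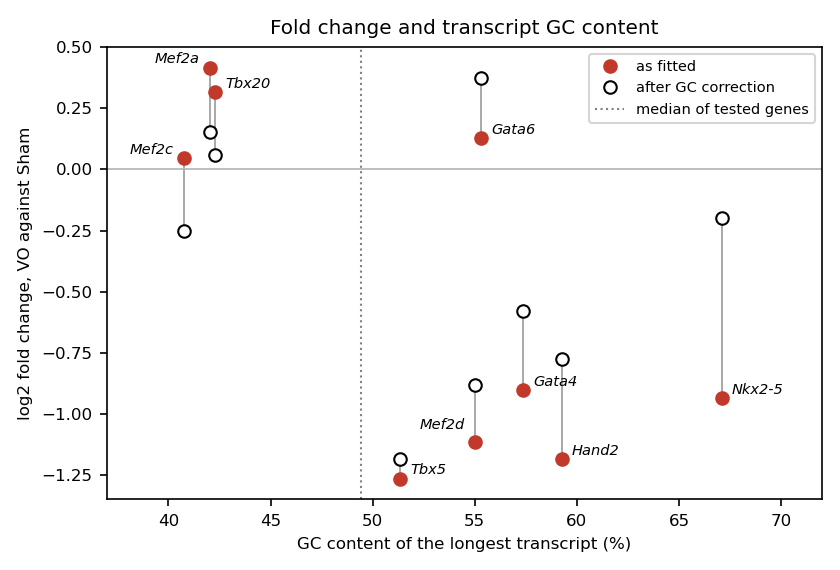
Log2 fold change in VO against Sham (vertical axis) against the GC content of the longest transcript (horizontal axis, %), as fitted (filled) and after the GC correction (open), joined by a line for each gene. Nkx2-5 moves from -0.94 to -0.20 and Tbx5 from -1.26 to -1.19, and the dotted line is the median GC of tested genes, 49.4%.

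CsA was set against VO to read the effect of the drug among operated pups. VO is described without an injection, so the drug and its injection cannot be told apart. In this comparison limma called 0 of the 9 genes, against a background of 0% of 13477 genes (2219, or 16.5%, at an unadjusted p under 0.05; 0 also with voom on recovered fragments). Gata4, Mef2d, Hand2 and Tbx5 were higher in every CsA library than in any VO library, which held for 10.9% of all tested genes (10.3% were lower). Their log2 differences were 0.74 ± 0.23 for Gata4, 0.81 ± 0.28 for Mef2d, 0.83 ± 0.21 for Hand2 and 0.57 ± 0.28 for Tbx5, at adjusted p of 0.219, 0.237, 0.204 and 0.34. At an unadjusted p under 0.05, Hand2, Gata4 and Mef2d were higher (background 8.64% higher, 7.82% lower). Nkx2-5 stood at 0.48 ± 0.28, and at -0.026 after the GC correction, Gata6 at -0.28 ± 0.15, Mef2a at -0.29 ± 0.19, Tbx20 at -0.25 ± 0.33 and Mef2c at 0.037 ± 0.21. The comparisons of VO with Sham and of CsA with VO share the VO libraries.

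CsA was also set against Sham. Here limma called 0 of the 9 genes, with a background of 0% (200 genes, or 1.48%, at an unadjusted p under 0.05; 0 with voom). Tbx5, at -0.69 ± 0.28 (95% interval -1.33 to -0.060), was the 1 gene of the 9 with an unadjusted p under 0.05, lower (0.89% of all genes; limma adjusted p = 1). Gata4, Nkx2-5, Tbx5 and Hand2 were below Sham in every CsA library, against 4.94% of all tested genes (4.8% were higher, 9.74% either way). Their log2 differences of -0.16, -0.46, -0.69 and -0.36 had 95% intervals that reached from -0.67 to 0.34 for Gata4, from -1.08 to 0.16 for Nkx2-5 and from -0.83 to 0.11 for Hand2. The intervals for Gata6 (-0.49 to 0.18), Mef2a (-0.31 to 0.56), Mef2c (-0.39 to 0.56), Mef2d (-0.94 to 0.33) and Tbx20 (-0.66 to 0.80) included 0, which does not show that the groups are alike.

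Partners of these factors were read from lists chosen for the tissue, with earlier results of these data known. Among 28 tested cofactors and repressors, 3 fell in VO against Sham and 0 rose, with a median log2 difference of -0.25. Over all tested genes 2.72% were called lower and 2.04% higher, at a median of 0.0028. With the GC correction 0 of all genes were called. Camta2, a coactivator of Nkx2-5 that class II histone deacetylases restrain, fell from 11.3 to 4.39 FPKM (log2 -1.23 ± 0.25, limma adjusted p = 0.0396). The class II deacetylases Hdac5 and Hdac7, which bind MEF2 and repress its targets, fell by 0.94 and 0.68 on the log2 scale (adjusted p = 0.0408 for both). Their relatives Hdac4 and Hdac9 were at -0.18 and -0.068 without passing, Zfpm2, the Gata4 cofactor FOG2, was at 0.15 and the GATA cofactor Zfpm1 at -1.05.

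In the list of 26 other tested cardiac transcription factors, 1 fell in VO and 0 rose (median -0.12). Esrra, a nuclear receptor of mitochondrial gene expression, fell from 34.9 to 20.4 FPKM (log2 -0.77 ± 0.17, limma adjusted p = 0.0422). Tbx3, a T-box repressor of the conduction system, was at -0.64 ± 0.16 (adjusted p = 0.0511), Srf at -1.02 and the homeodomain protein Hopx at 1.00 without passing. For comparison, 6.47% of the 850 tested genes with a transcription factor family were called.

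Textbook targets of the core factors had 0 of 30 members called in VO against Sham, against 4.76% of all tested genes. Of the 30, 23 were below 0, with a median of -0.48, against 0.0028 over all tested genes. The nearest to the threshold was Myh6, the fast cardiac myosin heavy chain, at 1066 FPKM in VO and 2240 in Sham (log2 -1.07 ± 0.26, limma adjusted p = 0.0501). Xirp1, a MEF2 target at the intercalated disc, was at -0.65 ± 0.20 (adjusted p = 0.0715). The largest differences in this list, none past the test, were those of Bmp10 (-4.30), Nppa (-3.50) and Myl7 (-3.24). All 3 are also in the list of atrial markers, whose summed level was high in Sham 1 and Sham 3. The connexin Gja1 and the natriuretic peptide Nppb, at 0.34 and 0.83, and the cardiac actin Actc1, at 0.0034, were among the 7 members above 0, none past the test. In CsA against VO, none of these 3 lists had a call, with medians of 0.13 for cofactors, 0.13 for other factors and 0.33 for targets. Against Sham the CsA medians were -0.077, -0.061 and -0.16, again with no call.

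Markers of other cells that can express these factors were measured beside them. Each list is short, and 4.76% of all tested genes were called in VO against Sham, 2.72% lower and 2.04% higher. The summed level of 10 fibroblast markers was 893 to 1068 FPKM in Sham, 1126 to 1215 in VO and 947 to 1119 in CsA, and 1 of 10, Lum, rose in VO. That of 5 endocardial markers was 56.0, 28.1 and 56.3 FPKM in Sham 1 to 3, 24.0 to 29.1 in VO and 28.5 to 46.9 in CsA. Sham 1 and Sham 3 are also the Sham libraries high in Myl7, and Sham 2 lay inside the VO range. Among the 5, 1, Plvap, was called lower in VO. Endothelial markers ranged from 482 to 523 FPKM in Sham, from 362 to 797 in VO and from 505 to 571 in CsA. The highest VO sum was that of VO 3, with VO 1 at 362 and VO 2 at 420 FPKM. In this list 2 of 10 were called lower in VO, Tie1 and again Plvap. Epicardial markers overlapped between the groups (21.9 to 33.0, 21.5 to 32.7 and 25.9 to 35.3 FPKM) with 0 of 6 called, and smooth muscle and pericyte markers were at 782 to 1100, 617 to 751 and 787 to 868 FPKM, with 1 of 8 tested lower, Myh11. The summed level of 7 conduction system markers was 10.3 to 12.6 FPKM in Sham, 4.86 to 8.60 in VO and 7.59 to 9.38 in CsA, so VO lay below Sham. All 4 tested, Tbx3, Hcn4, Cntn2 and Cacna1g, had values below 0 and 0 passed, and Isl1 was at 0 in every VO and CsA library. Macrophage markers were at 139.1 to 162 FPKM in Sham, 82.6 to 169.7 in VO and 122 to 159.2 in CsA. Of these 8, 1, Fcgr1, was called higher in VO, but 5 had values below 0 and 3 above (median log2 -0.29). Erythroid markers were at 710.1 to 896, 592 to 2039 and 667 to 1039.5 FPKM, with 0 of 6 called. VO 3 held the highest VO sum of both lists. VO 1 and VO 2 were at 102 and 82.6 FPKM for macrophage and 592 and 790 for erythroid markers. The part of these cells in the levels of the core factors was not tested.

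Across the 9 libraries, members fell into patterns that are given as a description, since the libraries share group and composition. Gata4 and Mef2d were most alike (Pearson r = 0.96 of log2(FPKM + 1)), then Mef2c and Tbx20 (0.92), while Mef2a and Hand2 ran opposite (-0.83), as did Gata4 and Gata6 (-0.76). Among 9041 other protein-coding genes (mean at or above 2 FPKM), the patterns most like Hand2 were those of Znhit2, Wbp2 and Repin1 (r of 0.99 each), those most like Tbx20 were Rcor1, Tbl2 and Pds5a (0.97 to 0.99), and those most like Tbx5 were Alpk3, Gnao1 and Mapk8ip3 (0.97 each). Gata4 was closest to Jak3, Hcfc1 and Syk, Gata6 to Uqcc1, Cnot11 and Rbm20, and Nkx2-5 to Irf2bp1, Rnf216 and 2310022A10Rik, at r of 0.94 or more. For the MEF2 genes these were Qk, Pafah1b1 and Camk2d with Mef2a, Zkscan8, Ahctf1 and Ccser2 with Mef2c, and Taok2, Npc1 and Ppp6r2 with Mef2d.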

How the data were processed

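The members and gene lists were chosen with earlier results of these data known. The deposited values are FPKM, as the authors computed them, 1 column per library. The submitters' processing notes name, without roles, featureCounts (1.5.0-p3), HISAT2 (2.0.5), GATK (3.7), StringTie (1.3.3b) and DESeq2 (1.20.0), and the builds mm10 and GRCm38. No source used here names the annotation release. Libraries came from a NEBNext Ultra preparation of Trizol RNA, per the labels.

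Values were tested as log2(FPKM + 1), which understates the change of low genes, for genes whose mean reached 0.5 FPKM, in 1 fit of all 9 libraries in limma 3.58.1 (R 4.3.3) with a mean-variance trend, two-sided, with Benjamini-Hochberg adjustment over 13477 genes at 0.05. The fit was tested on simulated data. Named genes were all members, list genes past the test or with the smallest p, other list members named for their role after their values were seen, and the 3 genes most like each member. Whole fragments were recovered from FPKM and exonic length (100% of values within 0.1 of a whole number). GC content came from the longest GENCODE M21 transcript, and the correction was a loess per library (span 0.3). Promoter windows are RefSeq's (GRCm38.p6). Within groups, libraries differed beyond sampling noise (chi-square per degree of freedom 12.45 to 200.4), so none was merged. Figures used matplotlib 3.10.9.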

Additional observations from a re-analysis of the deposited data

How the results depend on the processing

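Of 28 alternatives, 13 kept the calls of both Hand2 and Tbx5 in VO against Sham. The number of members called there went from 2 to 4 with a mean of at least 1 FPKM, with voom on recovered fragments and with a length correction, and to 0 with no filter, with only the groups compared, with the replicate block, with the GC correction alone, with the block, with a length correction or without VO 3, with Myl7 as a covariate and without the 3 libraries high in Myl7; leaving out 1 library gave 0 to 5. The 642 genes called overall went to 1011 with voom, 1442 with the length correction, 1 with the replicate block, 3 without the libraries high in Myl7, 6 with GC and length corrections, 19 with the GC correction without VO 3, and 0 with no filter, only the groups compared, the GC correction with or without the block, or Myl7 as a covariate; leaving out 1 library gave 0 to 2032. For CsA against VO the count of 0 went to 1 with the GC correction without VO 3 and to 0 to 1 leaving out 1 library, and for CsA against Sham to 3 without the libraries high in Myl7 and to 0 to 3 leaving out 1 library; no member was called. The length correction, the combined corrections, the Myl7 settings, the transcript lengths and the GC correction without VO 3 were added after seeing the data.

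Some signs turned. Mef2c in VO against Sham turned to -0.023 rescaled without mitochondrial genes, -0.25 with the GC correction (with or without the block), -0.062 with GC and length corrections, -0.080 with the GC correction without VO 3 and -0.15 to 0.30 leaving out 1 library. In CsA against VO, Nkx2-5 turned from 0.48 to -0.026 with the GC correction, with or without the block, and -0.17 without VO 3 as well, Mef2c to -0.051 with voom, -0.060 with the length correction and -0.22 to 0.23 leaving out 1 library, and Tbx20 was at -0.64 to 0.031 leaving out 1 library. In CsA against Sham, Mef2a turned to -0.047 and Tbx20 to -0.12 without the libraries high in Myl7. Mef2c turned to -0.047 and Tbx20 to -0.043 with the GC correction, with the block or without VO 3, and to -0.015 and -0.016 with GC and length corrections, and Tbx20 was at -0.075 to 0.29 leaving out 1 library. The Mef2c share in CsA against VO turned to 0.418 percentage points on recovered fragments not per length and 0.328 per base of the longest transcript, and the Gata6 share in CsA against Sham (0.118) lay between -1.47 and 1.82 leaving out 1 library. The cause was not tested.

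Same-numbered libraries had deviations correlated at -0.40 to 0.237, so the numbers were not taken to pair the libraries. With the replicate block Hand2 and Tbx5 stood at adjusted p of 0.0766 and 0.0831. A quasi-likelihood count test was not run, since the deposited unit is FPKM, and the Hand1 to Hand2 ratio could not be computed. At 0 fragments per library, a Hand1 level under about 0.1 FPKM cannot be seen.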
